A study of Homo sapiens with 12 samples.

Results

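RNA levels of 10 genes of the BCL2 family were followed in 2 human B-cell leukemia lines, MEC1 and JVM2, with and without raised expression of UGT2B17, an enzyme that inactivates steroids and other lipophilic compounds by attaching glucuronic acid. The genes were taken by symbol and comprised 4 anti-apoptotic genes (BCL2, MCL1, BCL2L1 and BCL2A1), 2 effectors (BAX and BAK1) and 4 genes of the BH3-only class (BCL2L11, BBC3, PMAIP1 and BID). All 10 were among the 22441 genes of the MEC1 table and the 17144 genes of the JVM2 table, and all 10 passed the filter on low counts in both lines. Each of the 4 cell populations was sequenced in 3 biological replicates. Separate transfections of the same kind are not described, so the spread between replicates does not cover the spread between transfections. MEC1-2B17 and JVM2-2B17 cells stably expressed UGT2B17 from a pcDNA6 vector holding its coding sequence. JVM2-CTRL cells carried the empty pcDNA6 vector, whereas MEC1-CTRL cells carried a short hairpin RNA that stably repressed UGT2B17. Both JVM2 populations and MEC1-2B17 were selected with blasticidin, and MEC1-CTRL with puromycin. In MEC1 the 2 arms therefore differ in repression and overexpression of UGT2B17, in vector and in antibiotic, and these cannot be told apart. In both lines, UGT2B17 and differences that arose while the populations were made and selected cannot be told apart either.

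The BCL2 family controls the mitochondrial route to apoptosis. Effectors form pores in the outer mitochondrial membrane that release cytochrome c, anti-apoptotic proteins hold effectors and activators in check, and BH3-only proteins carry stress signals to both. Mature B cells and chronic lymphocytic leukemia (CLL) cells depend on BCL2 and MCL1 for survival, and the BCL2 inhibitor venetoclax is used to treat CLL.

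Libraries held 31762649 to 37744991 counts in MEC1 and 8809179 to 11231330 counts in JVM2. Levels are in CPM, a gene's reads scaled to the same total in every library (TMM over all 12 libraries). UGT2B17 measured 11.2, 10.2 and 9.87 CPM in MEC1-CTRL and 21.5, 19.6 and 19.1 CPM in MEC1-2B17, and 31.9, 27.9 and 29.2 CPM in JVM2-CTRL and 37.6, 48.6 and 37.8 CPM in JVM2-2B17. It was higher in every 2B17 library than in every control of its line, by a log2 fold change of 0.94 ± 0.0687 (SE, edgeR adjusted p = 2.02e-09) in MEC1 and 0.48 ± 0.105 (SE, edgeR adjusted p = 0.00481) in JVM2. All 6 B-cell markers were present in each library, at 57.8 CPM or more. Of these, 2 were higher and 4 lower in MEC1-2B17, and 3 higher and 1 lower in JVM2-2B17, with MS4A1, which encodes CD20, at -0.58 and 0.40 on the log2 scale. Summed T-cell markers (5 of 6 in the MEC1 table, 1 of 6 in the JVM2 table) lay at 18.1 to 18.4 CPM in MEC1-CTRL and 10.9 to 11.7 in MEC1-2B17, and at 47.4 to 53 in JVM2-CTRL and 33.9 to 43.0 in JVM2-2B17. Nearly all of this was TRAC, lower in 2B17 in both lines (-0.70 and -0.33), while CD3E, a defining T-cell marker, had 0 to 4 counts per MEC1 library. Summed monocyte markers stayed at 1.80 CPM or less. Summed erythroid and epithelial markers lay at 1.51 to 1.73 CPM in MEC1-CTRL and 2.61 to 2.97 in MEC1-2B17, and at 21.3 to 23.6 in JVM2-CTRL and 19.6 to 21.5 in JVM2-2B17. The part of these shifts in the results was not tested. Replicate 3 of MEC1-CTRL and replicate 2 of JVM2-2B17 stood apart from the other libraries of their arms, at 6.11 to 7.56 and 7.70 to 7.89 times the variance of counting error (mean chi-square per gene with at least 10 counts), against 2.34 and 2.14 for the remaining pair of each arm. The gap was smaller for replicate 1 of JVM2-CTRL (3.08 to 4.89 against 2.19) and replicate 2 of MEC1-2B17 (3.29 to 3.44 against 2.26).

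In MEC1-2B17 cells, 7 of the 10 genes differed from control, 1 higher and 6 lower. The background over the 16581 genes tested was 41.7%, with 20.0% higher and 21.6% lower. The median log2 fold change was -0.19 over the 10 genes and 0.0026 over all genes tested. MCL1, BCL2A1 and BCL2L1 among the anti-apoptotic genes, BAK1 among the effectors, and BBC3 and BID of the BH3-only class were lower, whereas BCL2L11 was higher. In JVM2-2B17 cells, 5 genes differed, 2 higher (BCL2A1 and BBC3) and 3 lower (BCL2L1, BCL2L11 and PMAIP1), against a background of 29.3% of 13021 genes, with 14.1% higher and 15.3% lower. There the median was 0.11 over the 10 genes and 0.00012 over all genes. With upper quartile scaling the JVM2 split became 4 higher and 3 lower. Of the 4 genes that passed the test in both lines, BCL2L1 moved the same way and BCL2A1, BBC3 and BCL2L11 moved in opposite ways. The count was 7 in MEC1 without replicate 3 of MEC1-CTRL, and 6 in JVM2 without replicate 2 of JVM2-2B17, where BCL2 joined. In bulk RNA, fewer transcripts per cell and fewer cells with the transcript cannot be told apart.

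**Figure D1:**
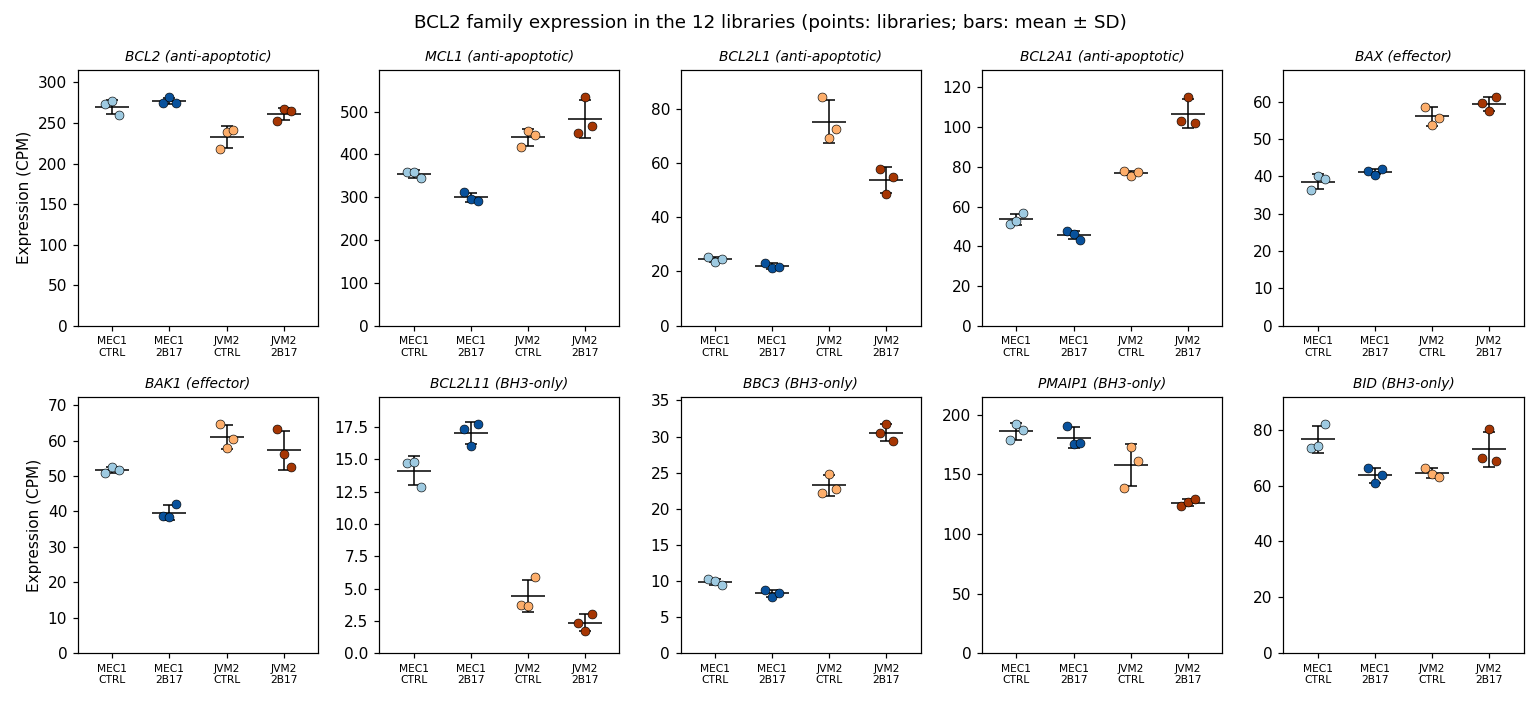
Expression of the 10 genes in CPM (vertical axes, linear from 0, a separate scale per gene) in the 4 populations, with 1 point per library and bars for the mean ± SD of 3 libraries. BCL2A1 libraries sit lower in MEC1-2B17 than in MEC1-CTRL and higher in JVM2-2B17 than in JVM2-CTRL, and BCL2L11 libraries show the opposite order in each line.

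RefSeq promoter windows of GRCh38, 250 bases upstream of each start, were read for the 3 genes that moved in opposite ways between the lines, and 9 of the 10 genes had such a window. MCL1 had none. The windows were searched on both strands for the TATA box TATAAA, the E-box motif CACGTG, the CCAAT box, the GC box GGGCGG, the FOXO element TGTTTAC, the AP-1 element TGANTCA and, by name, the NF-kB element. Matches are in capitals, none overlaps another in the printed stretches, and bases inside an annotated GENCODE exon were left out. The BCL2A1 stretch (chr15:79971197-79971446, minus strand) holds a TATAAA match 64 bases before the start. The BCL2L11 stretch (chr2:111120664-111120913, plus strand) lies within the GENCODE span of the gene, which begins farther upstream. The BBC3 stretch (chr19:47232767-47232917, minus strand) ends 99 bases before the RefSeq start.
BCL2A1: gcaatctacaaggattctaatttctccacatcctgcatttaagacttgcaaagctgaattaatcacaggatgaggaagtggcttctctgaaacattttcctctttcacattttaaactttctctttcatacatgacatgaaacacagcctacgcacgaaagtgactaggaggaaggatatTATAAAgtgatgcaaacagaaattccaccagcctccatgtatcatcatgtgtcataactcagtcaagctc
BCL2L11: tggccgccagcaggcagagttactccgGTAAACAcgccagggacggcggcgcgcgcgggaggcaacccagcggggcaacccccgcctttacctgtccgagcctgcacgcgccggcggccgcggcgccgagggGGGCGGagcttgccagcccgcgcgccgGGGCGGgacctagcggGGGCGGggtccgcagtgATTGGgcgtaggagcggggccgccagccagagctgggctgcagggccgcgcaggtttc
BBC3: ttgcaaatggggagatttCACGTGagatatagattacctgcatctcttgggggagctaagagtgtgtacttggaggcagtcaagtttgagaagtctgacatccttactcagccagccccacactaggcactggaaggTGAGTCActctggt
Over 35116 promoter windows of the same length, TATAAA was present in 10.7%, GGGCGG in 42.6%, CCAAT in 32.0%, the FOXO element in 2.98%, CACGTG in 6.34%, TGANTCA in 6.57% and the NF-kB element in 9.96%. In BCL2L11 the FOXO match lies 216 bases, the CCAAT match 53 bases and the 3 GC box matches 69 to 112 bases before the start. In BBC3 the E-box match lies 226 bases and the AP-1 match 106 bases before the start. The BBC3 window also holds a CCAAT match 82 bases before the start, in the part not printed. BAX, whose level passed the test in neither line, has 4 E-box matches 8 to 132 bases before its start. No window of the 9 genes holds the NF-kB element in these letters.

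Among the anti-apoptotic genes, MCL1 (ENSG00000143384, chr1:150560895-150579738, minus strand) encodes a short-lived survival protein on which B cells depend. It measured 358, 359.9 and 344 CPM in MEC1-CTRL and 312, 296 and 292 CPM in MEC1-2B17. Every MEC1-2B17 library lay below every control, and the log2 fold change was -0.24 ± 0.0364 (SE, edgeR adjusted p = 2.26e-05). In JVM2 it measured 418, 455 and 446 CPM in CTRL and 449, 534 and 466 CPM in 2B17. These ranges overlapped and the difference of 0.14 ± 0.0680 (SE, edgeR adjusted p = 0.156) did not pass the test, with a 95% interval of -0.01 to 0.28.

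BCL2A1 (ENSG00000140379, chr15:79960892-79971196, minus strand) encodes BFL-1, an inducible survival protein of activated B cells and a target of NF-kB. Its level was 51.0, 53 and 56.5 CPM in MEC1-CTRL and 47.5, 46.1 and 43.3 CPM in MEC1-2B17, 1.18-fold lower. The log2 fold change was -0.23 ± 0.0493 (SE, edgeR adjusted p = 8.18e-04), and the arms did not overlap. In JVM2, 77.7, 75.5 and 77.3 CPM in CTRL stood against 103, 115 and 102 CPM in 2B17, 1.39-fold higher. All 2B17 libraries lay above all controls there, with a log2 fold change of 0.47 ± 0.0628 (SE, edgeR adjusted p = 1.19e-04).

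BCL2L1 (ENSG00000171552, chr20:31664452-31723989, minus strand) encodes BCL-XL, a long-lived relative of BCL2. Controls measured 25.4, 23.4 and 24.4 CPM in MEC1 and 84.2, 69.1 and 72.3 CPM in JVM2. The 2B17 libraries measured 23.1, 21.1 and 21.7 CPM in MEC1 and 57.6, 48.4 and 54.8 CPM in JVM2. BCL2L1 was the 1 gene of the 10 that passed the test as lower in both lines, with log2 fold changes of -0.16 ± 0.0556 (SE, edgeR adjusted p = 0.03) in MEC1 and -0.48 ± 0.0898 (SE, edgeR adjusted p = 0.0015) in JVM2, and the arms did not overlap in either line. The MEC1 call was lost with DESeq2 (adjusted p = 0.0743), hence also when both DESeq2 and edgeR's exact test had to pass, and without replicate 1 of MEC1-CTRL or replicates 2 or 3 of MEC1-2B17 (edgeR adjusted p = 0.118, 0.129 and 0.107). An opposite-strand non-coding gene, ABALON, covers 41.3% of its exon bases and is in neither table. Whether counting used strand is not given in the sources used here.

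BCL2 (ENSG00000171791, chr18:63123346-63320128, minus strand), the target of venetoclax, measured 273, 277 and 260.1 CPM in MEC1-CTRL and 275, 282 and 274 CPM in MEC1-2B17. The arms overlapped, the difference of 0.03 ± 0.0351 (SE, edgeR adjusted p = 0.478) did not pass the test, and its 95% interval ran from -0.04 to 0.11. In JVM2, 217, 238 and 242 CPM in CTRL and 253, 267 and 265 CPM in 2B17 did not overlap. The log2 fold change was 0.17 ± 0.0601 (SE, edgeR adjusted p = 0.0515), which did not pass the test. It passed without replicate 2 of JVM2-2B17 (edgeR adjusted p = 0.0249), with RLE scaling (0.0472) and with upper quartile scaling (0.0283).

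Of the effectors, BAK1 (ENSG00000030110, chr6:33572547-33580293, minus strand), which resides on mitochondria, showed the largest fall of the 10 genes in MEC1. It measured 51.0, 52.6 and 51.6 CPM in MEC1-CTRL and 38.8, 38.3 and 42.0 CPM in MEC1-2B17, with no overlap. The log2 fold change was -0.39 ± 0.0458 (SE, edgeR adjusted p = 1.43e-06), 1.31-fold lower. JVM2 libraries measured 64.6, 57.9 and 60.4 CPM in CTRL and 63.3, 56.2 and 52.4 CPM in 2B17, which overlapped, with a difference of -0.08 ± 0.0801 (SE, edgeR adjusted p = 0.467). BAK1 has processed pseudogenes that share sequence with it and are in neither table, so its level is uncertain to the extent that reads were split between them, which was not tested. BAX (ENSG00000087088, chr19:48954815-48961798, plus strand) moves from cytosol to mitochondria in dying cells. It measured 36.3, 40.1 and 39.2 CPM in MEC1-CTRL and 41.4, 40.4 and 42.0 CPM in MEC1-2B17. In JVM2 the values were 58.6, 53.8 and 55.7 CPM and 59.8, 57.5 and 61.2 CPM. The arms did not overlap in MEC1 and overlapped in JVM2. BAX passed the test in neither line, with differences of 0.10 ± 0.0487 (SE, edgeR adjusted p = 0.127) in MEC1 and 0.09 ± 0.0674 (SE, edgeR adjusted p = 0.361) in JVM2 and 95% intervals of -0.01 to 0.20 and -0.06 to 0.23.

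In the BH3-only class, BCL2L11 (ENSG00000153094, chr2:111119378-111168444, plus strand) encodes BIM, an activator of apoptosis whose transcription is raised by FOXO factors. It was the 1 gene of the 10 that passed the test as higher in MEC1-2B17, going from 14.7, 14.8 and 12.9 CPM to 17.4, 16.1 and 17.7 CPM. The log2 fold change was 0.26 ± 0.0677 (SE, edgeR adjusted p = 0.00383). In JVM2 it was scarce, with 35, 37 and 52 counts in CTRL and 24, 14 and 25 counts in 2B17, or 3.73, 3.68 and 5.89 CPM and 2.32, 1.69 and 3.0 CPM. The log2 fold change was -0.91 ± 0.268 (SE, edgeR adjusted p = 0.0232), the largest fall of the 10 genes in JVM2, and its 95% interval ran from -1.49 to -0.32. That call was lost without replicate 3 of JVM2-CTRL or replicate 1 of JVM2-2B17 (edgeR adjusted p = 0.111 and 0.0649). An opposite-strand non-coding gene, MIR4435-2HG, covers 10.8% of the exon bases of BCL2L11. It had 416 counts over the MEC1 libraries and 14 over the JVM2 libraries, and the counting strand is not given.

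BBC3 (ENSG00000105327, chr19:47220822-47232766, minus strand) encodes PUMA, which binds all anti-apoptotic members. It measured 10.3, 9.98 and 9.38 CPM in MEC1-CTRL and 8.74, 7.79 and 8.38 CPM in MEC1-2B17. Every MEC1-2B17 library was lower than every control, with a log2 fold change of -0.25 ± 0.0776 (SE, edgeR adjusted p = 0.013). The call was lost without replicate 1 of MEC1-CTRL or replicate 2 of MEC1-2B17 (edgeR adjusted p = 0.0519 and 0.0627). In JVM2, BBC3 rose from 22.2, 24.8 and 22.7 CPM to 30.6, 31.7 and 29.4 CPM, again without overlap. The JVM2 log2 fold change was 0.39 ± 0.0859 (SE, edgeR adjusted p = 0.00438).

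PMAIP1 (ENSG00000141682, chr18:59899996-59904305, plus strand) encodes NOXA, which binds MCL1 and speeds its degradation. MEC1 libraries measured 179, 192 and 188 CPM in CTRL and 191, 175 and 177 CPM in 2B17, which overlapped. The MEC1 difference was -0.04 ± 0.0416 (SE, edgeR adjusted p = 0.431). In JVM2, PMAIP1 was lower in all 3 libraries of 2B17, at 123, 127 and 129 CPM against 138, 173 and 162 CPM. The log2 fold change was -0.32 ± 0.0789 (SE, edgeR adjusted p = 0.00916), and the call was lost without replicate 2 of JVM2-CTRL (edgeR adjusted p = 0.0587). BID (ENSG00000015475, chr22:17734138-17774770, minus strand) is cut by caspase-8 and links death receptors to mitochondria. It was lower in MEC1-2B17, at 66.2, 61.0 and 63.7 CPM against 73.4, 74.2 and 81.9 CPM in CTRL, with a log2 fold change of -0.27 ± 0.0465 (SE, edgeR adjusted p = 1.12e-04). JVM2 values were 66.3, 64.3 and 62.9 CPM in CTRL and 69.9, 80.2 and 68.9 CPM in 2B17, which did not overlap, and the difference of 0.18 ± 0.0708 (SE, edgeR adjusted p = 0.0797) did not pass the test.

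The exact permutation test on a single gene with 3 libraries against 3 cannot give a two-sided p below 0.1, so the tests here rest on the spread estimated over all genes.

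**Figure D2:**
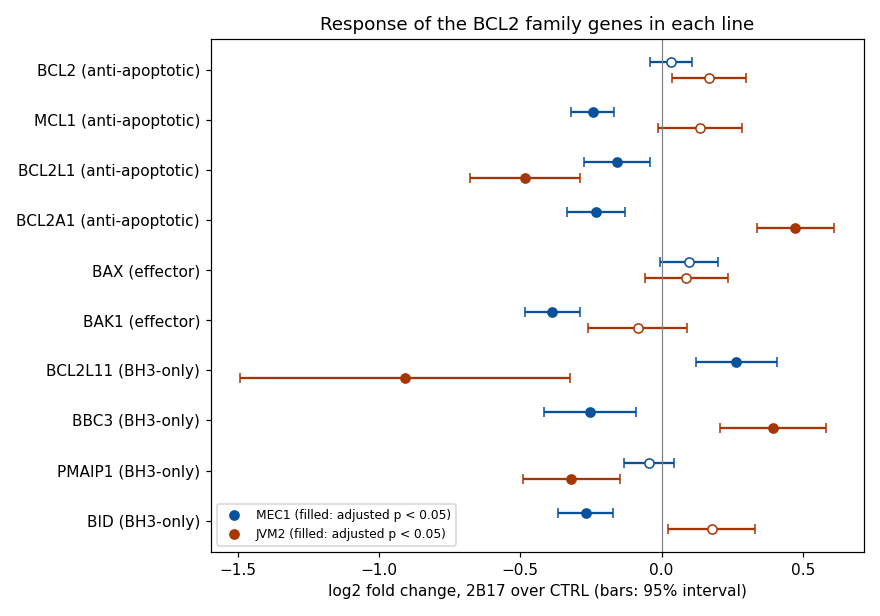
Log2 fold change of 2B17 over CTRL (horizontal axis) for each gene, in MEC1 (blue) and JVM2 (brown), with 95% intervals and filled points for edgeR adjusted p below 0.05. BCL2A1 and BBC3 lie left of 0 in MEC1 and right of 0 in JVM2, BCL2L11 the reverse, and BCL2L1 is the 1 gene with a filled point left of 0 in both lines.

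The response was compared between the lines by the interaction of line and arm, which uses the same libraries as the 2 comparisons above. It differed for 8 of the 10 genes, 3 higher in MEC1 (more positive) and 5 lower, against a background of 32.0% of 15130 genes (15.3% higher and 16.7% lower). The largest difference was that of BCL2L11, at 1.18 ± 0.260 (SE, edgeR adjusted p = 0.00153) on the log2 scale. BCL2A1 followed at -0.70 ± 0.0806 (SE, edgeR adjusted p = 9.97e-07) and BBC3 at -0.64 ± 0.108 (SE, edgeR adjusted p = 1.09e-04). The differences of BID, -0.44 ± 0.0867 (SE, edgeR adjusted p = 5.14e-04), and MCL1, -0.38 ± 0.0808 (SE, edgeR adjusted p = 0.00119), also had adjusted p-values below 0.05. The difference was 0.33 ± 0.108 (SE, edgeR adjusted p = 0.0231) for BCL2L1. It was -0.30 ± 0.0917 (SE, edgeR adjusted p = 0.0163) for BAK1 and 0.28 ± 0.0919 (SE, edgeR adjusted p = 0.0246) for PMAIP1, and these 3 lost their calls when single libraries were left out. BCL2L1 was lost without replicate 2 of MEC1-CTRL, replicate 1 of MEC1-2B17 or replicate 1 of JVM2-CTRL, BAK1 without replicate 2 of JVM2-CTRL or replicate 1 of JVM2-2B17, and PMAIP1 without replicate 1 of MEC1-CTRL, MEC1-2B17 or JVM2-2B17 or replicates 2 or 3 of JVM2-CTRL. Thinned to the depth of the shallowest library, 6 genes differed, with BCL2L1 and BAK1 no longer among them. BAX differed by 0.01 ± 0.0809 (SE, edgeR adjusted p = 0.928) and BCL2 by -0.13 ± 0.0700 (SE, edgeR adjusted p = 0.165), neither past the test. UGT2B17 itself rose more in MEC1 than in JVM2, by 0.47 ± 0.129 (SE, edgeR adjusted p = 0.00771) on the same scale. An unequal change in UGT2B17 and an unequal response to it therefore cannot be told apart.

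Levels of different genes were compared per kilobase of merged exons. PMAIP1 stood highest in MEC1-CTRL, at 85.1 ± 3.15 CPM per kb (SD, n = 3), followed by MCL1 at 56.9 ± 1.41 and BCL2A1 at 53.8 ± 2.79, whose ranges overlapped. BAK1 at 23.4 ± 0.364, BCL2 at 21.4 ± 0.693, BID at 17.3 ± 1.07 and BAX at 14.9 ± 0.776 came next, and BCL2L1 at 5.82 ± 0.246, BBC3 at 3.10 ± 0.141 and BCL2L11 at 2.10 ± 0.165 were lowest. In JVM2-CTRL, BCL2A1 at 77.2 ± 1.18 lay above MCL1 at 70.7 ± 3.11 in every library, PMAIP1 at 72.1 ± 8.11 overlapped both, and BCL2 at 18.4 ± 1.04 overlapped BCL2L1 at 17.9 ± 1.90. BCL2L11 was again lowest, at 0.658 ± 0.188 CPM per kb. In JVM2-2B17, BCL2A1 stood above MCL1 and PMAIP1 in every library, at 107 ± 7.27, 77.7 ± 7.19 and 57.8 ± 1.44 CPM per kb. The order depended on the length used. With the longest transcript in place of merged exons, MEC1-CTRL had BCL2 at 36.2 ± 1.17, BID at 30.7 ± 1.89 and BAX at 28.4 ± 1.48 CPM per kb, all now above BAK1 at 23.4 ± 0.364. In JVM2-CTRL the mean of MCL1, 96.6 ± 4.25, was then above that of BCL2A1, whose range it overlapped, and that of PMAIP1, 83.0 ± 9.34, and BCL2 at 31.2 ± 1.77 stood above BCL2L1 at 23.1 ± 2.45.

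**Figure D3:**
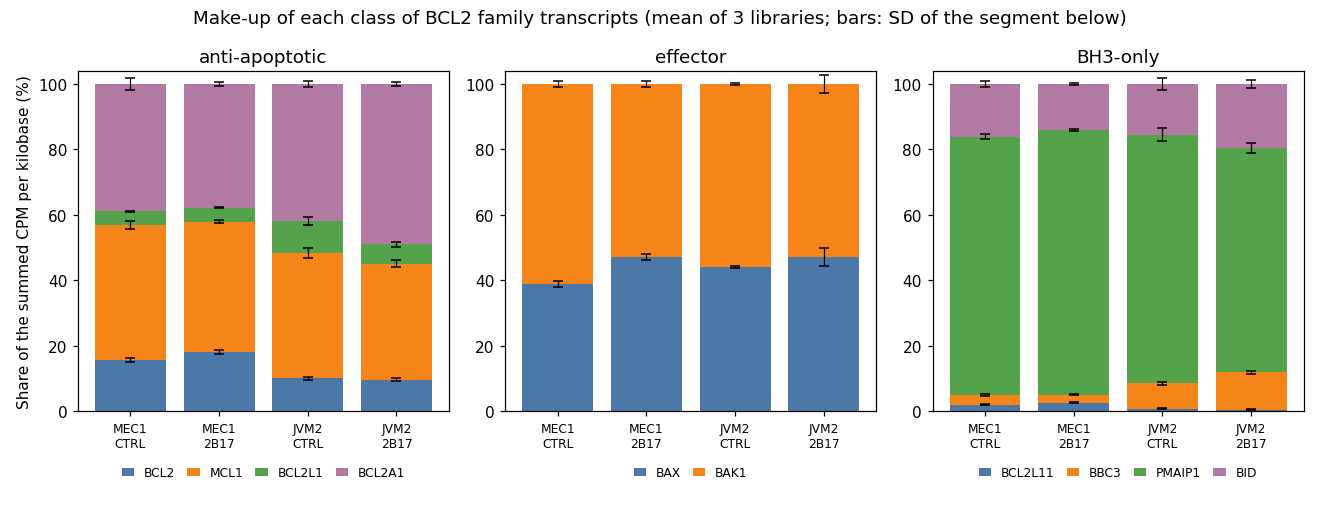
Share of each gene (vertical axis, percent) in the summed CPM per kilobase of merged exons of its class, for the 4 populations, as the mean of 3 libraries with the SD of the segment below each bar end. The BCL2A1 segment is widest in JVM2-2B17 and the PMAIP1 segment dominates the BH3-only class throughout.

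Within the anti-apoptotic class, the share of BCL2A1 was 41.9 ± 0.816% in JVM2-CTRL and 49.1 ± 0.489% in JVM2-2B17, and that of BCL2L1 was 9.73 ± 1.11% and 5.89 ± 0.855% (SD, n = 3). In MEC1, the share of BCL2 was 15.5 ± 0.552% in CTRL and 18.1 ± 0.621% in 2B17. Among effectors, the share of BAX was 38.9 ± 0.931% in MEC1-CTRL and 47.1 ± 0.862% in MEC1-2B17. With the longest transcript these became 54.8 ± 0.974% and 62.9 ± 0.809%, so which effector held the larger share depended on the length used. With only BAX and BAK1 in the class, the length used cannot change the direction between arms. In MEC1-2B17, BAK1 was lower (log2 fold change -0.39), whereas BAX did not pass the test (edgeR adjusted p = 0.127). In the BH3-only class, the share of BBC3 was 7.72 ± 0.364% in JVM2-CTRL and 11.4 ± 0.399% in JVM2-2B17, and that of PMAIP1 was 76.1 ± 2.04% and 68.6 ± 1.46%. Shares within a class are not independent of one another.

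At baseline, MEC1-CTRL was compared with JVM2-CTRL. All 10 genes differed, 4 higher and 6 lower in MEC1-CTRL, where 78.3% of the 15130 genes tested differed (39.6% higher and 38.7% lower), and the members' count is read against that share. The controls of the arms above are the same libraries, and line, control construct, antibiotic and depth cannot be told apart. Whether sequencing site also differed between the lines is not stated in the paper. BCL2L11 was higher in MEC1-CTRL by 1.69 ± 0.144 (SE, edgeR adjusted p = 9.26e-10) on the log2 scale. BCL2L1 was lower by 1.62 ± 0.0748 (SE, edgeR adjusted p = 3.52e-14), or 3.08-fold, and BBC3 by 1.23 ± 0.0783 (edgeR adjusted p = 7.38e-12). Differences were smaller for BAX (-0.54), BCL2A1 (-0.52), MCL1 (-0.31), BAK1 (-0.24), BID (0.25), PMAIP1 (0.24) and BCL2 (0.22). Scaling by library size alone moved the median of all genes from 0.037 to 0.20, and upper quartile scaling to 0.17, and BAK1 then lost its call (-0.07 and -0.11, edgeR adjusted p = 0.274 and 0.134). Under the same 2 scalings BCL2 moved to 0.38 and 0.35, PMAIP1 to 0.40 and 0.37, BID to 0.41 and 0.38, and MCL1 to -0.15 and -0.18, all still past the test.

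**Figure D4:**
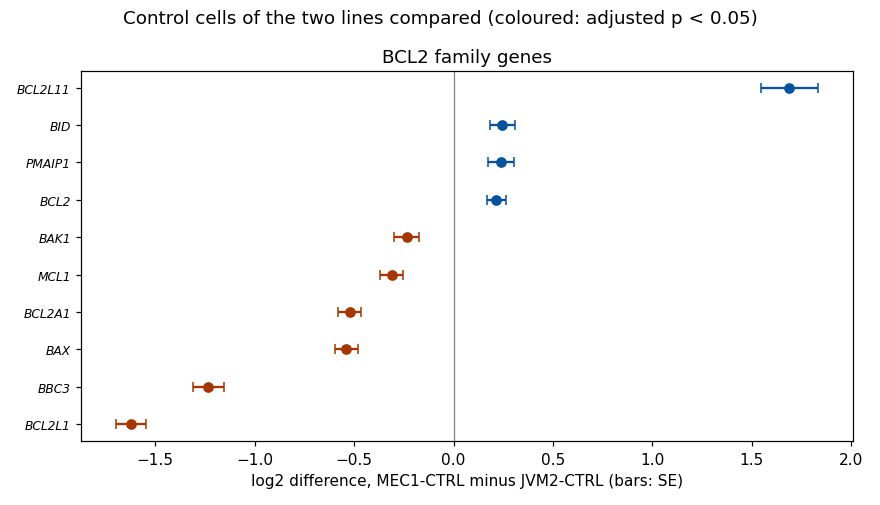
Log2 difference of MEC1-CTRL minus JVM2-CTRL (horizontal axis) for the 10 genes, with SE bars, blue for higher and brown for lower in MEC1-CTRL at an edgeR adjusted p below 0.05. BCL2L11 lies farthest right of 0, at 1.69, and BCL2L1 farthest left, at -1.62.

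Of 13 other BCL2 family genes, 11 were in at least 1 table. Among 10 tested in MEC1, 3 were higher and 3 lower in 2B17, and among 8 tested in JVM2, 2 were higher and none lower, to be read beside the 41.7% and 29.3% of all genes called. BCL2L10, an anti-apoptotic relative, measured 5.38, 5.24 and 5.67 CPM in MEC1-CTRL and 11.3, 10.4 and 11.0 CPM in MEC1-2B17. Its log2 fold change was 1.00 ± 0.0805 (SE, edgeR adjusted p = 7.75e-09), and it was not in the JVM2 table. BMF, a BH3-only gene, was lower in MEC1-2B17 by 0.53 ± 0.0614 (SE, edgeR adjusted p = 1.06e-06), and the BH3-only gene BAD by 0.25 ± 0.0827 (edgeR adjusted p = 0.0217). BCL2L2, which encodes BCL-W, was lower by 0.24 ± 0.0573 (edgeR adjusted p = 0.00246). BCL2L14, at 46 to 49 counts in CTRL and 80 to 96 in 2B17, was higher by 0.98 ± 0.151 (edgeR adjusted p = 3.46e-05), and BCL2L12 by 0.24 ± 0.0549 (edgeR adjusted p = 0.0018). In JVM2, BNIP3L and BCL2L13, mitochondrial proteins with roles in mitophagy, were higher by 0.54 ± 0.0814 and 0.41 ± 0.0838 (edgeR adjusted p = 3.19e-04 and 0.003). BCL2L13, BNIP3, BNIP3L and BCL2L15 in MEC1, and BCL2L2, BAD, BMF, BCL2L12, BNIP3 and BCL2L15 in JVM2, did not pass the test. BIK had 5 to 17 counts per MEC1 library and was not tested.

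The neighbouring steps of the pathway were described by 5 further lists. Of 9 genes of the death receptor pathway in MEC1, 5 were higher and 4 lower in 2B17. TNFRSF1A, the TNF receptor, rose by 1.28 ± 0.131 (SE, edgeR adjusted p = 2.04e-07) and its adaptor TRADD by 0.62 ± 0.0605 (SE, edgeR adjusted p = 1.19e-07). The TRAIL receptor TNFRSF10A fell by 0.91 ± 0.0736 and TNFSF10, which encodes TRAIL, by 0.72 ± 0.0680 on the log2 scale. In JVM2, 2 of 7 were higher, TNFRSF10B (0.45) and FAS (0.27), and 1 was lower, TNFSF10, at a log2 fold change of -1.87 ± 0.129 (SE, edgeR adjusted p = 4.03e-07). TNFSF10 was lower in 2B17 cells of both lines. Of 9 caspases and apoptosome genes, 3 were lower in MEC1, with CASP10 (-0.72) and CASP8 (-0.29) the largest, and 1 was higher (CASP10, 0.24) and 1 lower (CASP2, -0.50) in JVM2. Of 8 inhibitors of apoptosis and their antagonists, 3 were higher and 1 lower in MEC1, with XIAP, a direct caspase inhibitor, at 0.46 ± 0.0403 (SE, edgeR adjusted p = 2.60e-08), HTRA2 at 0.13 and BIRC2 at -0.19. In JVM2, DIABLO (0.51) and BIRC3 (0.38) were higher and none lower.

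Of 12 transcription factors with known member genes as targets, 3 were higher and 4 lower in MEC1, and none was higher and 2 were lower in JVM2, where 16.7% called stands below the 29.3% of all genes. REL, an NF-kB subunit, fell in both lines, by 0.57 ± 0.0492 and 0.30 ± 0.103 on the log2 scale (edgeR adjusted p = 1.87e-08 and 0.0424), and E2F1 by 0.20 ± 0.0387 and 0.27 ± 0.0684 (edgeR adjusted p = 3.96e-04 and 0.0114). MYC (0.50) and ATF4 (0.21) rose in MEC1. Of the FOXO factors, FOXO1 was lower in MEC1-2B17 (-0.12, edgeR adjusted p = 0.015) and FOXO3 did not pass the test there. Neither passed the test in JVM2. At baseline, FOXO1 was higher (0.16) and FOXO3 lower (-6.40) in MEC1-CTRL. The part of FOXO factors in the level of BCL2L11 was not tested. Of 9 genes that act on MCL1 or BH3-only proteins after translation, 4 were lower in MEC1, with MARCH5 (-0.27) and BTRC (-0.16) the largest, and 2 in JVM2, DYNLL2 (-0.24) and FBXW7 (-0.22), with none higher in either line. Over these 5 lists the share called ran from 44.4% to 100% in MEC1, beside 41.7% of all genes, and from 16.7% to 42.9% in JVM2, beside 29.3%. The median log2 fold changes ran from -0.072 to 0.11 for MEC1, where that of all genes was 0.0026, and from -0.10 to 0.21 for JVM2, where it was 0.00012.

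Likeness of pattern was measured by Pearson's r of log2 CPM over the 12 libraries, after centring each line, among 10946 genes. The libraries share their arms and depth, so the values are descriptions. BCL2A1 was most like WHAMM (r = 0.986) and PEBP1 (0.973), MCL1 like ZBTB1 (0.981) and FKBP3 (0.960), and BBC3 like TIPARP (0.978) and LRIG1 (0.971). BCL2L1 was most like KIAA0930 (0.977) and TMEM109 (0.970), and BAK1 like TMEM63B (0.971) and LINC00263 (0.956). BCL2L11 was most like SOS1 (0.958) and HNRNPUL2 (0.951), BCL2 like AGBL3 (0.956) and CREBRF (0.951), and BAX like ETHE1 (0.958) and FBXL8 (0.881). BID was most like ZBED6CL (0.949) and NDUFB2 (0.945), and PMAIP1 like FLJ22447 (0.926) and MBNL2 (0.915). Among the members themselves, BCL2A1 and BBC3 had the highest r, 0.889, and BCL2 and BCL2L1 the lowest, -0.924.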

How the data were processed

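The 12 RNA samples, 3 biological replicates per population, were sequenced with paired ends after ribosomal RNA was depleted. The paper names 2 sequencing sites without saying which libraries went to each. Per the labels and methods, the authors trimmed reads with Trimmomatic, aligned them to hg38 with TopHat2 2.0.14 and counted them per gene with HTSeq. The counting strand is not given in the sources used here. The authors deposited raw read counts per gene, which were used. The deposited normalized values (a rounded score per sample), the authors' own log2 fold changes and log2 mean levels, and the authors' p-values from edgeR and DESeq2 were not used. Both tables hold genes with at least 10 counts over 6 libraries, and the 2 tables were joined by Ensembl identifier.

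Each line was fitted alone with edgeR 4.0.16 (R 4.3.3): filterByExpr (minimum count 10, total 15), TMM and the quasi-likelihood test, with Benjamini-Hochberg adjustment over all genes tested and a threshold of 0.05. The interaction and baseline came from 1 fit of all 12 libraries. The 95% intervals are not adjusted for the number of genes. Exon lengths are from GENCODE 44 and list medians count tested genes. DESeq2 1.42.0, other scalings and filters, a replicate block, thinning and leaving out each library were alternatives. Scripts were tested on simulated data. Some results are not reported here. All 10 members were described in full, with UGT2B17, the other BCL2 family genes, FOXO1 and FOXO3. The largest called changes at average log2 CPM of at least 1 in each list, and the 2 genes most like each member, were also named. The members and lists were chosen with earlier results of these data known. Depth limits precision, at 8809179 to 11231330 counts per JVM2 library.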

Additional observations from a re-analysis of the deposited data

Results flagged for a closer look

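The 8 members below were singled out because the effect of 2B17 differed between MEC1 and JVM2 by the interaction term of the edgeR fit of all 12 libraries (adjusted p below 0.05 over 15130 genes, of which 32.0% passed). The response in MEC1 minus that in JVM2, on the log2 scale, was 1.18 for BCL2L11, 0.33 for BCL2L1 and 0.28 for PMAIP1. It was -0.70 for BCL2A1, -0.64 for BBC3, -0.44 for BID, -0.38 for MCL1 and -0.30 for BAK1. The MEC1 and JVM2 controls differ in construct and antibiotic, and the lines differ in depth (8809179 to 11231330 counts per JVM2 library and 31762649 to 37744991 per MEC1 library). With every library thinned to the same total, 6 of the 8 kept an adjusted p below 0.05. UGT2B17 itself rose more in MEC1 than in JVM2, by 0.47 (edgeR adjusted p = 0.00771) in the same fit. Its level was higher in JVM2-CTRL (27.9 to 31.9 CPM) than in MEC1-2B17 (19.1 to 21.5 CPM). The paper does not say at which site each library was sequenced. The parts of construct, antibiotic, sequencing site and the unequal change in UGT2B17 were not tested.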

How the results depend on the processing

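Counts of members past the threshold stayed within 1.5 times their main value in every alternative. They ranged from 5 to 7 of 10 in MEC1, 4 to 7 in JVM2, 6 to 8 for the difference in response and 9 to 10 at baseline. Leaving out single libraries gave 5 to 7, 4 to 6, 6 to 8 and 10 members. Over all genes tested, leaving out single libraries gave 5936 to 6606 genes in MEC1, 2687 to 4541 in JVM2, 4231 to 5063 for the difference in response and 11216 to 12273 at baseline. BID joined the JVM2 calls with upper quartile scaling (edgeR adjusted p = 0.0496). The difference in response of BAX, never past the test, changed sign to -0.0075 with upper quartile scaling and ranged from -0.031 to 0.042 when single libraries were left out, below 0 without replicate 1 of MEC1-CTRL, replicate 3 of MEC1-2B17, replicate 1 of JVM2-CTRL or replicate 2 of JVM2-2B17. Causes were not tested.

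Same-numbered CTRL and 2B17 libraries deviated from the means of their arms with r = -0.042, -0.0068 and 0.040 in MEC1. In JVM2 these were 0.086, 0.117 and -0.0059. Not every library correlated best with its own number, though replicate 3 of MEC1 and replicates 1 and 2 of JVM2 did. With so few libraries per arm this check is weak and cannot exclude pairing by replicate number. With the replicate block added to the fit, 7 members passed in MEC1, 6 in JVM2 (BCL2 joined, adjusted p = 0.0273), 8 for the difference in response and 10 at baseline. Depth limits BCL2L11 in JVM2, at 14 to 52 counts per library.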
